A study of Mus musculus with 20 samples.

Results

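The GABA-A receptor is the chloride channel through which GABA, the main inhibitory transmitter of the forebrain, acts fastest. The 7 subunit genes described here are Gabra2, Gabra3 and Gabra5 (alpha subunits), Gabrb1 and Gabrb2 (beta subunits), Gabrg1 (a gamma subunit) and Gabrd (the delta subunit). They are a list of names with no threshold, drawn up with earlier results of these data known, and are 7 of the 19 GABA-A subunit genes among the 19214 genes in the tables. All 7 passed the filter on low counts, as did 14884 genes in all. Of the 12 other subunit genes 8 passed, and Gabra6, Gabrp, Gabrr1 and Gabrr3 did not.

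The tissue was mouse BNST (bed nucleus of the stria terminalis), profiled by RNA-seq of polyadenylated RNA. It is a forebrain region rich in GABA neurons that links the amygdala with the hypothalamus and is studied for sustained anxiety. The 20 libraries form 4 groups of 5: female controls, male controls, and susceptible females and susceptible males made anxious by chronic restraint, that is, repeated holding in a narrow space. The labels give no strain, age or number of stress days, and state neither how susceptibility was scored nor whether each library is a different animal. The p-values therefore reflect library-to-library spread, part of which may be technical. The libraries hold no stressed group other than the susceptible ones. In what is called a stress effect below, restraint and any selection of susceptible mice cannot be told apart. Group and replicate number come from the sample titles, and levels are given as CPM, read counts scaled by TMM to a common library size.

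As background, a receptor is assembled from alpha and beta subunits together with a gamma or a delta subunit, and GABA binds where alpha meets beta. Benzodiazepines bind between an alpha and a gamma subunit. Receptors with alpha2 or alpha3 are the ones most often tied to their anxiety-relieving action. Receptors with delta, and many with alpha5, sit outside synapses and carry a slow, tonic inhibition, and those with delta respond strongly to neurosteroids. The gamma1 subunit is found mainly in parts of the extended amygdala, to which the BNST belongs, and in a few related regions.

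Library makeup varied before any comparison of groups. Markers of subpallial GABA neurons were present in all 20 libraries: Slc32a1, the vesicular GABA transporter, ranged from 150.3 to 348 CPM, Dlx6 from 14.2 to 36.7 and Nkx2-1 from 3.89 to 22.7. Markers of nearby tissue also appeared, unevenly. Ttr, the main choroid plexus transcript, exceeded 100 CPM in 7 libraries and reached 2001 CPM in susceptible female 3. Pmch, a lateral hypothalamic peptide gene, exceeded 1 CPM in 5 libraries (female controls 1, 2 and 3, susceptible female 4 and susceptible male 5). The summed CPM of 10 striatal markers ranged from 601 to 5854, and that of 10 cortical and hippocampal excitatory markers from 152 to 1312. The group comparisons, gene pairs and marker relations were also run without the 7 Ttr libraries and without the 5 Pmch libraries. Without the Pmch libraries only female controls 4 and 5 were left in that group. Male control 1 stayed in all these runs. It held 184 CPM of 4 hypothalamic markers (Pmch, Hcrt, Oxt and Avp) and 697 CPM of 10 thalamic markers. The other male controls held at most 4.03 and 265 CPM of them. Total counts were 14637636 to 17862840 per library, and no 2 libraries of a group agreed within sampling noise (smallest chi-square per degree of freedom 5.88).

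Because 3 of the 7 genes lie in 1 cluster, position and upstream sequence are shown first. On GRCm38, Gabrg1 (chromosome 5, 70751047 to 70842617), Gabra2 (70957597 to 71095849) and Gabrb1 (71658113 to 72149037) share a stretch of chromosome 5 with Gabra4. Gabrb2 lies on chromosome 11 (42419757 to 42629028), Gabra5 on chromosome 7 (57407672 to 57510059), Gabra3 on the X chromosome (72432681 to 72656848) and Gabrd on chromosome 4 (155384980 to 155398112). Exons of Gabrb1 and Gabra4 overlap by 46 bases on opposite strands, and 148 bases of Gabra5 exon are shared with Gm9962. Reads in the 46 bases cannot be assigned, because whether counting used strand is not stated. Gm9962 is not among the genes in the tables, so whether the 148 bases were ambiguous in counting is not known.

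Upstream sequences are printed for Gabra3 and Gabrg1, whose levels ran opposite to those of Gabrd across the libraries, and for Gabra2, a cluster neighbour of Gabrg1 with no such relation. These 3 were chosen after their values were seen. Each is the 250 bases before a RefSeq start on GRCm38.p6, minus strand, 5′ to 3′: chr5:71095850-71096099 for Gabra2, chrX:72656920-72657169 for Gabra3 and chr5:70842618-70842867 for Gabrg1. Capitals mark a match on either strand to the GC box (GGGCGG) or to the TATA box (TATAAA), which reads TTTATA when it lies on the other strand.
Gabra2: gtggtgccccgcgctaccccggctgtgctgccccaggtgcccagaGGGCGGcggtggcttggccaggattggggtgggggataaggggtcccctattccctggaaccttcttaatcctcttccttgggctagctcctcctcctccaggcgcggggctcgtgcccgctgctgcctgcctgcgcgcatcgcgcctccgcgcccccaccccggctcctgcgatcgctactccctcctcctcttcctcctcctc
Gabra3: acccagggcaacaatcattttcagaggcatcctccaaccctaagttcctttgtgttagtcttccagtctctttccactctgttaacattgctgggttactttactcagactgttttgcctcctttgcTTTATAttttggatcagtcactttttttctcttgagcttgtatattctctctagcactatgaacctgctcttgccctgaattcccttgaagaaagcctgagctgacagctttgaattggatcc
Gabrg1: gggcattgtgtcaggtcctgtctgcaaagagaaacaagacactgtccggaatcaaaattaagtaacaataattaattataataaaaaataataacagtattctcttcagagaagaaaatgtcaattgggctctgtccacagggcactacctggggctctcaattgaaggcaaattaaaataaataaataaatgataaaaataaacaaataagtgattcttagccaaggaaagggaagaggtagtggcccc

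The windows differed in base composition. The Gabra2 window was 70.0% GC with 18 CpG pairs and 1 GC box. The Gabra3 window had 42.4% GC, no CpG pair and 1 TATA match, and the Gabrg1 window 35.6% GC, 1 CpG pair and no match to any motif searched. Over 32851 such windows of RefSeq genes the median was 52.4% GC and 6 CpG pairs, with a GC box in 32.74%, a TATA box in 12.37%, the E-box CACGTG in 6.021% and the cyclic AMP response element TGACGTCA in 1.546%. RefSeq windows were matched for 6 of the 7 genes, all but Gabrd. A second Gabra3 window, chrX:72656808-72657057, was 39.2% GC with no CpG pair and 1 TATA match. The first Gabrb1 window had 18 CpG pairs and the Gabra5 window 9. These matches are letters in a window and show no binding.

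Per kilobase of exon, the 7 genes made up 44.3% ± 1.37 (SD, n = 20 libraries) of the summed level of all 19 subunit genes, and 42.2% to 46.7% in single libraries. In whole tissue, fewer cells of a type and less RNA per cell cannot be told apart. Gabra3 had the highest length-scaled level of the 7, at 32.1 ± 4.78 CPM per kb (SD, n = 20). Gabrd followed at 23.3 ± 7.02 and Gabrb2 at 22.1 ± 5.48, which differed by less than their spread. Gabra5 (13.9 ± 1.93), Gabrb1 (13.8 ± 2.38), Gabra2 (13.2 ± 2.60) and Gabrg1 (11.1 ± 2.27) formed a lower set in which each neighbour lay within the spread of the next. The order depends on the length used: with the longest transcript in place of all exons Gabrb2 came first at 35.3, Gabrg1 was at 18.2 and Gabra2 at 17.2 CPM per kb.

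Shares within each class give the scale. On the same per-kilobase scale Gabra3 supplied 24.4% ± 2.88 of the total of all alpha subunits (SD, n = 20), Gabra5 10.6% and Gabra2 10.1%. Of the beta total Gabrb2 held 26.7% ± 5.54 and Gabrb1 16.8% ± 3.36. Among the remaining subunits Gabrd held 30.4% ± 9.65 and Gabrg1 14.3% ± 2.46. Gabra4, another alpha subunit, stood at 22.9 ± 6.88 CPM per kb, Gabrq at 6.42 ± 4.20, Gabrg3 at 5.39 ± 0.928 and Gabre at 2.42 ± 1.67. Gabra6, the subunit of cerebellar granule cells, had 37 counts over all 20 libraries, 21 of them in susceptible female 3.

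**Figure D1:**
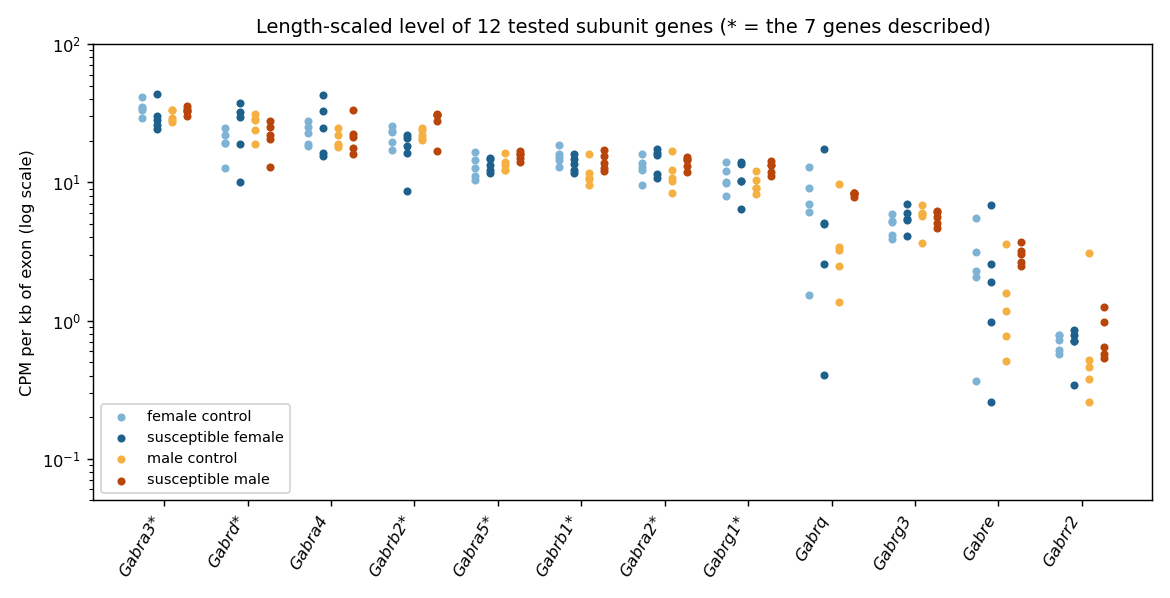
Length-scaled level (CPM per kb of exon, log scale) of the 7 genes and 5 other subunit genes that passed the filter, ordered by their mean over 20 libraries; each point is 1 library, coloured by group. Gabra3 leads the 7 genes marked with an asterisk at 32.1 CPM per kb on average, and Gabrg1 is lowest of them at 11.1.

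In susceptible males 6 of the 7 genes had estimates above the male controls, yet none of the 7 passed the test. The median log2 fold change of the 7 was 0.25, beside -0.01 over all genes tested. By edgeR's quasi-likelihood test no gene of the 14884 passed either (percent called 0), and 9.67% had an unadjusted p under 0.05, as did 1 of the 7. DESeq2 called 24 genes and none of the 7.

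Gabrg1 was the member with the smallest p. Its levels in male controls were 95.7, 65.1, 71.2, 71.6 and 82.1 CPM, and in susceptible males 112, 87.7, 104, 104 and 93.8 CPM. The groups overlapped only through male control 1, which lay above 2 of the susceptible libraries. The log2 fold change was 0.38 ± 0.18 (SE, n = 5 against 5) with an unadjusted p of 0.0454 and an adjusted p of 0.510 by edgeR. Limma voom with quality weights called it (0.50, adjusted p = 0.0319), in a fit that called 4.63% of all genes, and did not once a trend on GC content and length was removed (0.31, adjusted p = 0.190), in a fit that called no gene at all (percent called 0). Gabrg1 exons are 35.3% GC, lower than all but 0.282% of genes.

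Gabrb1, a beta subunit, measured 221, 149, 147, 163 and 133 CPM in male controls and 189.6, 175, 168, 213 and 238 CPM in susceptible males. Male control 1 again stood among the susceptible libraries. In that library hypothalamic and thalamic markers summed to 184 and 697 CPM, against at most 4.03 and 265 CPM in the other male controls. Their part was not tested. The log2 fold change of Gabrb1 was 0.28 ± 0.13 (adjusted p = 0.529, edgeR).

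Gabrb2, the second beta subunit of the list, measured 156, 139.6, 128, 133 and 151 CPM in male controls and 194, 107, 198, 176 and 195 CPM in susceptible males. All but 1 of the susceptible libraries were above every control, and susceptible male 2 was below every control. The log2 fold change of 0.30 ± 0.20 had an adjusted p of 0.654 by edgeR.

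The alpha subunits had estimates of 0.13 to 0.25 in males. Gabra2 ranged from 63.5 to 129 CPM in controls and from 90.8 to 115 in susceptible males (log2 fold change 0.25 ± 0.17, adjusted p = 0.668, edgeR), with 0.43 when male control 4 was left out and 0.15 when male control 5 was. Gabra5 ranged from 36.5 to 48.5 and from 41.7 to 50.0 CPM (0.19 ± 0.12, adjusted p = 0.618, edgeR). Gabra3 ranged from 106 to 132 and from 118 to 139.9 CPM (0.13 ± 0.13, adjusted p = 0.773, edgeR). Gabrd, the delta subunit, had the only estimate below 0, at -0.27 ± 0.28 (adjusted p = 0.773, edgeR). It was -0.13 without susceptible male 1 and -0.51 without the Ttr libraries. In all 3 alpha genes the groups overlapped.

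**Figure D2:**
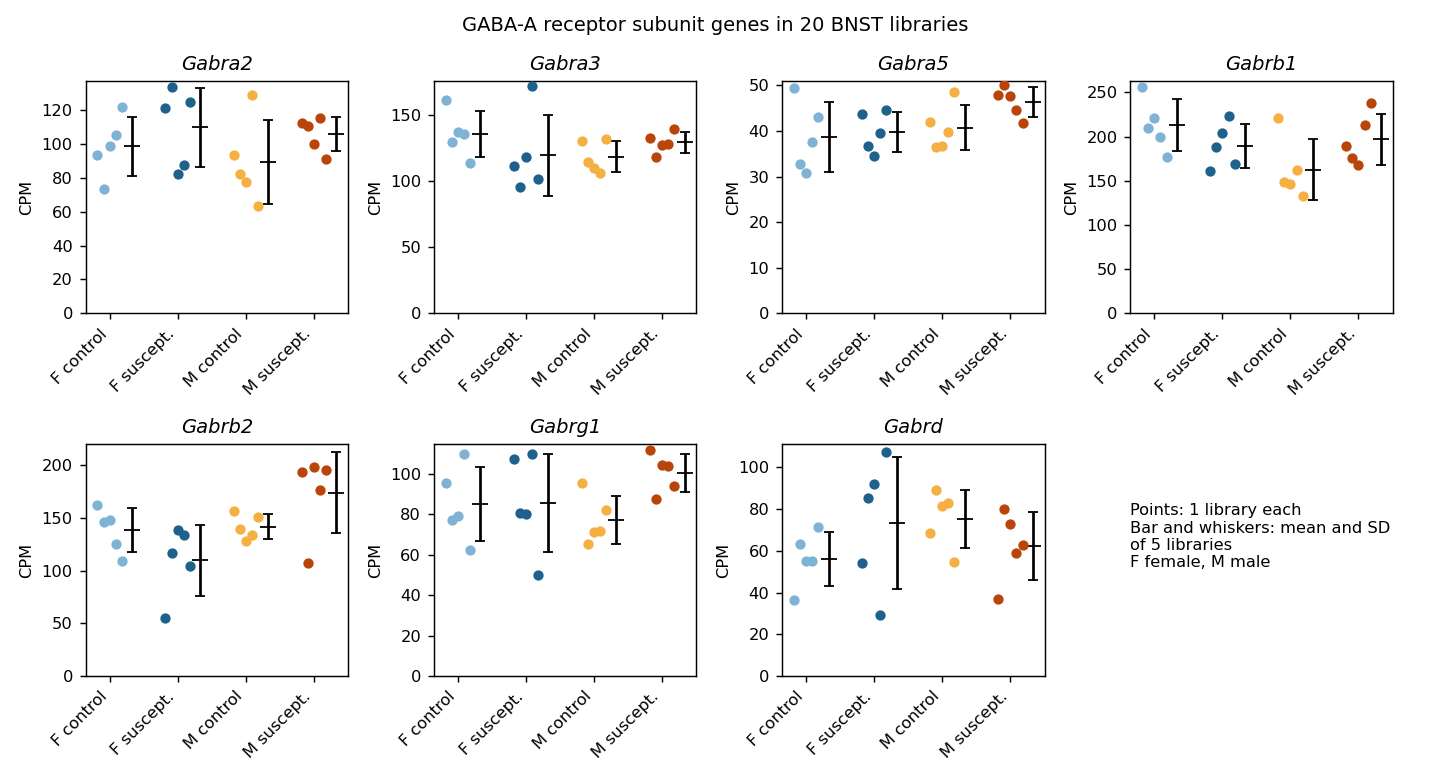
CPM of the 7 subunit genes in each of the 20 libraries, by group, with the mean and SD of 5 libraries beside the points. Gabrb2 spans 54.7 to 198 CPM and Gabrd 29.1 to 107 CPM, the widest relative ranges of the 7.

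In females the 7 genes were split, with 4 estimates above 0 and 3 below and a median of 0.01. None of the 7 passed, and neither did any gene in the edgeR fit (percent called 0), with 5.85% at an unadjusted p under 0.05 and none of the 7 among them. DESeq2 and limma voom called no gene either.

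Gabrd showed the most variable levels. Its values were 36.6, 63.1, 55.3, 55.2 and 71.4 CPM in female controls and 54.1, 85.1, 92.2, 29.1 and 107 CPM in susceptible females. The susceptible group held both the lowest and the highest library of the study. Its log2 fold change was 0.38 ± 0.28 (adjusted p = 0.776, edgeR), with 0.59 when susceptible female 4 was left out and 0.21 when susceptible female 5 was.

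Gabrb2 measured 162, 146, 148, 125 and 109 CPM in female controls and 54.7, 117, 139, 134 and 104 CPM in susceptible females. Susceptible female 1 had the lowest value of all 20 libraries. The log2 fold change was -0.33 ± 0.20 (adjusted p = 0.774, edgeR), and -0.16 without susceptible female 1.

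Gabra3 measured 162, 129.8, 137, 136 and 114 CPM in female controls and 111, 95.4, 118, 172 and 102 CPM in susceptible females. All but 1 of the susceptible libraries lay below the female control median, and susceptible female 4 had the highest value of the study. Its log2 fold change was -0.18 ± 0.13 (adjusted p = 0.774, edgeR). Without susceptible female 4 it was -0.35 (adjusted p = 0.289, edgeR), and -0.11 without female control 1 or without susceptible female 2. Over all alternatives run it lay between -0.35 and -0.045. Gabrb1 had an estimate of -0.17 ± 0.13, with 177 to 256 CPM in controls and 161 to 223 in susceptible females, and -0.09 without female control 1. Without the Pmch libraries, with female controls 4 and 5 alone in that group, it was -0.06. Over all alternatives run the Gabrb1 estimate lay between -0.24 and -0.0024. The estimates for Gabra2 (0.16 ± 0.17), Gabra5 (0.04 ± 0.12) and Gabrg1 (0.01 ± 0.18) had adjusted p-values of 0.832 to 0.988 by edgeR. Leaving out single libraries moved Gabra2 between 0.07 and 0.25, and Gabrg1 ranged from 62.5 to 110.0 CPM in controls and from 50.1 to 109.7 in susceptible females.

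The stress effects of the sexes were then compared directly, as the female effect minus the male effect. Of the 7 differences 6 were below 0, with a median of -0.31 against 0.01 over all genes, and none passed. The edgeR fit called no gene (percent called 0), while 8.26% had an unadjusted p under 0.05, as did 2 of the 7. DESeq2 and limma voom also called no gene.

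The 2 genes were both beta subunits. The difference was -0.63 ± 0.28 for Gabrb2 (95% confidence interval -1.22 to -0.04, unadjusted p = 0.0367, adjusted p = 0.587, edgeR) and -0.45 ± 0.19 for Gabrb1 (-0.84 to -0.05, unadjusted p = 0.0298, adjusted p = 0.587, edgeR). With the 5 libraries over 1 CPM of Pmch left out the differences were -0.44 and -0.27. Only female controls 4 and 5 stood for that group there. With the region score as a covariate (mean striatal minus mean thalamic log2 level) the differences were -0.41 and -0.22. For Gabrd, the subunit with the difference of opposite sign, the value was 0.66 ± 0.39 (adjusted p = 0.604, edgeR). The mean of the stress effects of both sexes lay between -0.03 (Gabra3) and 0.20 (Gabra2), none of the 7 was called by edgeR (percent called 0) or limma voom, and 7.71% of genes but none of the 7 had an unadjusted p under 0.05. DESeq2 called 29 genes there and none of the 7.

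**Figure D3:**
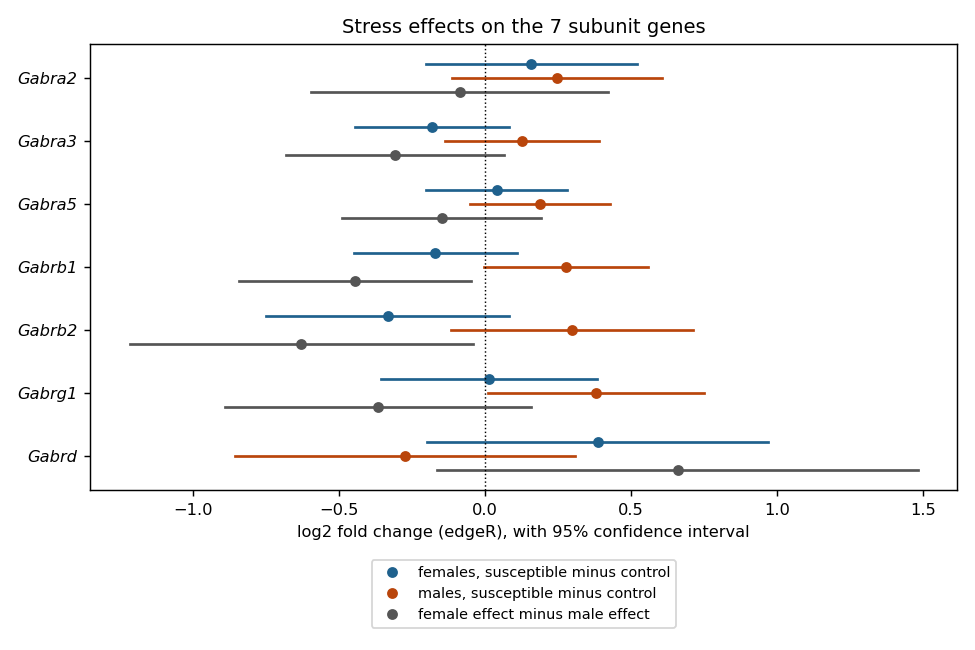
Log2 fold change of each of the 7 genes (edgeR, point) with its 95% confidence interval (line) for susceptible minus control in females and in males and for the female minus male effect. In males 6 of 7 points lie above 0, and for Gabrb1 and Gabrb2 the interval of the difference lies below 0, before adjustment for the number of genes tested.

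Between the control groups, Gabrb1 had the smallest p of the 7, with the lower mean in males. Its level was 256, 209.8, 221, 199.7 and 177 CPM in female controls and 221, 149, 147, 163 and 133 CPM in male controls, so that 4 of 5 male libraries lay below every female library. The log2 difference (male minus female) was -0.39 ± 0.13 (unadjusted p = 0.00922, adjusted p = 0.153, edgeR). Here edgeR called 0.511% of genes and none of the 7, while 19.2% of genes and 1 of the 7 had an unadjusted p under 0.05, and DESeq2 called 3.06% of genes and none of the 7.

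The Gabrb1 call depended on the method and on single libraries. Limma voom called it (-0.45, adjusted p = 0.0105) together with 22.3% of all genes, and edgeR called it without male control 1 (-0.53, adjusted p = 0.042) together with 1.29% of genes. Without the libraries over 1 CPM of Pmch, which left only female controls 4 and 5 in that group, the difference was -0.22. With the region score it was -0.16. The 4 lateral and magnocellular hypothalamic markers, all detected, summed to 5.05 to 353 CPM in female controls (median 181) and 0.574 to 184 CPM in male controls (median 2.87), and 10 oligodendrocyte markers to 6105 to 10381 against 3789 to 7071 CPM. The 184 CPM was in male control 1. The part of these lists in the difference was not tested.

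Of the other genes, Gabrd had a log2 difference of 0.42 ± 0.28 in controls, with 36.6 to 71.4 CPM in females and 54.6 to 89.0 in males, and 3 of the 5 male libraries above every female library (adjusted p = 0.403, edgeR). That estimate ran from 0.15 to 0.56 over the alternatives run, and from 0.30 to 0.52 with single libraries left out. Gabra3 was at -0.20 ± 0.13 and Gabra2 at -0.14 ± 0.17 (adjusted p = 0.390 and 0.655, edgeR).

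Between susceptible males and susceptible females, the largest estimate was in the other beta subunit. Gabrb2 measured 54.7, 117, 139, 134 and 104 CPM in the females and 194, 107, 198, 176 and 195 CPM in the males. Of the 5 male libraries 4 lay above every female library, and susceptible male 2 lay inside the female range. The log2 difference was 0.67 ± 0.20 (unadjusted p = 0.00344, rank 66 of 14884 genes, adjusted p = 0.690, edgeR). This comparison called 0.047% of genes and none of the 7 with edgeR, 6.28% of genes and 1 of the 7 at an unadjusted p under 0.05, and none of the 7 with DESeq2 or limma voom. The estimate stayed between 0.50 and 0.80 over the alternatives run. Gabrd (-0.24 ± 0.28), Gabrg1 (0.23 ± 0.18) and Gabra5 (0.22 ± 0.12) followed, with adjusted p-values of 0.892, 0.843 and 0.796 by edgeR. For Gabra5 3 of 5 male libraries lay above every female library. Leaving out single libraries moved Gabrd between -0.44 and -0.06 and Gabrg1 between 0.09 and 0.33.

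In no comparison did the groups of any of the 7 stand apart without overlap in CPM, which 0.457% of genes did in females, 2.44% in males, 3.89% between controls and 0.779% between susceptible mice.

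Other subunits were read in the same way. None of the 8 tested passed in any comparison by edgeR. Gabra4, Gabrg3 and Gabrr2 had no unadjusted p under 0.05. In males Gabre (0.98 ± 0.67) and Gabrq (1.04 ± 0.66), subunits of hypothalamic and brain stem neurons, had wide errors: Gabrq was at 51.7, 13.4, 17.3, 7.23 and 18.3 CPM in controls and 42.2 to 45.1 CPM in susceptible males.

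Across the libraries the 7 genes did not vary as a block. Of 21 pairs 4 passed at an adjusted p under 0.05 (Pearson's r of log2 CPM, 20 libraries, 100000 permutations, 2-sided, Benjamini-Hochberg over the pairs). Gabra3 and Gabrd were opposed: r = -0.83 (Spearman's rho -0.77, permutation p = 1e-05, the smallest that the permutations can give, adjusted p = 0.00021). Gabrd and Gabrg1 were opposed as well, at r = -0.70 (rho -0.71, permutation p = 0.00057, adjusted p = 0.00598). Gabra3 went with Gabrb1 (r = 0.61, rho 0.68, permutation p = 0.00411, adjusted p = 0.0267) and with Gabrg1 (r = 0.60, rho 0.58, permutation p = 0.00508, adjusted p = 0.0267). Gabrd is 54.7% GC, and Gabra3, Gabrb1 and Gabrg1 are 43.1%, 40.9% and 35.3%. Gabra2, at 38.4%, had r = 0.16 with Gabrd. The pairs were not run with the trend on GC content and length removed, so its part was not tested.

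The extremes show the pattern. The 2 libraries with the most Gabra3, susceptible female 4 (172 CPM) and female control 1 (162 CPM), had 29.1 and 36.6 CPM of Gabrd, the lowest and the second lowest of the study. Susceptible female 5 had the most Gabrd (107 CPM), the least Gabrg1 (50.1 CPM) and 102 CPM of Gabra3. Without the 2 libraries farthest from the median of the first gene, r was -0.78 for Gabra3 and Gabrd, -0.66 for Gabrg1 and Gabrd, 0.68 for Gabra3 and Gabrb1 and 0.61 for Gabra3 and Gabrg1. With group means subtracted it was -0.82, -0.74, 0.56 and 0.63, and the last no longer passed (adjusted p = 0.153, permutation), whereas Gabrb1 and Gabrb2 did (r = 0.54, adjusted p = 0.0361, permutation). The opposition of Gabra3 and Gabrd had a negative r inside each of the 4 groups, from -0.51 to -0.97.

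Without the 5 libraries over 1 CPM of Pmch only Gabrg1 and Gabrd passed (r = -0.75, adjusted p = 0.0208, permutation, 15 libraries). Gabra3 and Gabrd had r = -0.68 and Gabra3 and Gabrg1 r = 0.66 (both adjusted p = 0.0512, permutation), and Gabra3 and Gabrb1 only 0.25. Without the 7 libraries over 100 CPM of Ttr 6 pairs passed in 13 libraries, all 4 above and also Gabrb1 with Gabrd (r = -0.72, adjusted p = 0.0247, permutation) and Gabrb2 with Gabrg1 (r = 0.71, adjusted p = 0.025, permutation), and Gabra3 and Gabrd reached r = -0.90. Sharing a cluster went with no clear relation: r was 0.07 for Gabra2 and Gabrb1, -0.02 for Gabra2 and Gabrg1 and 0.40 for Gabrb1 and Gabrg1, none of which passed (smallest adjusted p = 0.197, permutation).

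**Figure D4:**
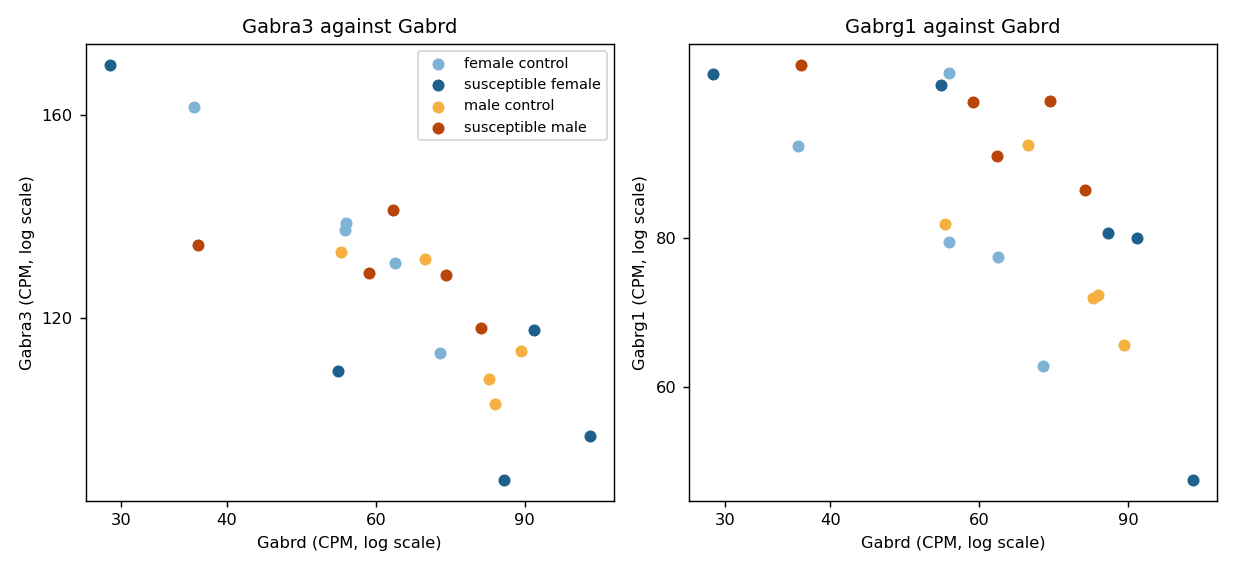
Gabra3 (left) and Gabrg1 (right) against Gabrd in 20 libraries, in CPM on log axes, coloured by group. Both fall as Gabrd rises, with r = -0.83 and r = -0.70.

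Gabra3, Gabrb1, Gabrd and Gabrg1 also varied with lists of marker genes. Each of the 7 genes was set against the summed level of 12 marker lists, 84 relations in all. At an adjusted p under 0.05, 19 passed (permutation test of r, 20 libraries), 11 with lists named for brain regions and 8 with glial lists. Whether BNST cells themselves express genes of those lists was not tested. In male control 1 the hypothalamic list summed to 184 CPM with 0.427 CPM of Pmch and 0.610 of Hcrt. Nearly all of that sum was therefore from the other listed genes, Oxt and Avp. Gabra3 had r = 0.81 with the 4 lateral and magnocellular hypothalamic markers (rho 0.83, permutation p = 2e-05) and -0.83 with the 10 striatal markers (rho -0.83, permutation p = 2e-05), adjusted p = 0.00056 for both. Gabrb1 had r = 0.83 with the hypothalamic list (rho 0.82, permutation p = 1e-05, adjusted p = 0.00056) and 0.77 with the thalamic list (rho 0.72, permutation p = 6e-05, adjusted p = 0.00101). Gabrd went with the striatal list at r = 0.78 (rho 0.83, permutation p = 9e-05, adjusted p = 0.00126), and Gabrg1 against the cortical and hippocampal list at r = -0.81 (rho -0.81, permutation p = 4e-05, adjusted p = 0.00084). Without the 2 farthest libraries these were 0.76, -0.77, 0.78, 0.77, 0.71 and -0.66 in the same order, and with group means subtracted 0.77, -0.82, 0.80, 0.76, 0.77 and -0.79. No relation of Gabra2, Gabra5 or Gabrb2 with a list passed.

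Of the glial relations, astrocyte markers ran against Gabra3 (r = -0.71, rho -0.59, adjusted p = 0.00619, permutation) and Gabrg1 (r = -0.66, rho -0.47, adjusted p = 0.0134, permutation) and with Gabrd (r = 0.58, rho 0.50, adjusted p = 0.0393, permutation). The oligodendrocyte list went with Gabrb1 (r = 0.70, rho 0.61, adjusted p = 0.00576, permutation). Oligodendrocyte precursor markers went with Gabra3 (r = 0.57), Gabrb1 (0.58) and Gabrg1 (0.59) and against Gabrd (-0.57). By rho these were 0.57, 0.52, 0.45 and -0.54, and none passed (smallest adjusted p = 0.0514, permutation). The astrocyte relations of Gabrg1 and Gabrd did not pass by rho either (adjusted p = 0.123 and 0.0948, permutation). Without the 5 Pmch libraries 3 of the 84 relations passed: Gabrg1 with the cortical and hippocampal list (r = -0.82, adjusted p = 0.0118, permutation) and with the oligodendrocyte precursor list (r = 0.78, adjusted p = 0.0196, permutation), and Gabrd with the striatal list (r = 0.79, adjusted p = 0.0181, permutation). There the hypothalamic list had r = 0.69 with Gabra3 and 0.68 with Gabrb1 (both adjusted p = 0.0879, permutation), and the striatal list -0.67 with Gabra3 (adjusted p = 0.0989, permutation). Without the 7 Ttr libraries 26 passed, among them 17 of the 19.

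**Figure D5:**
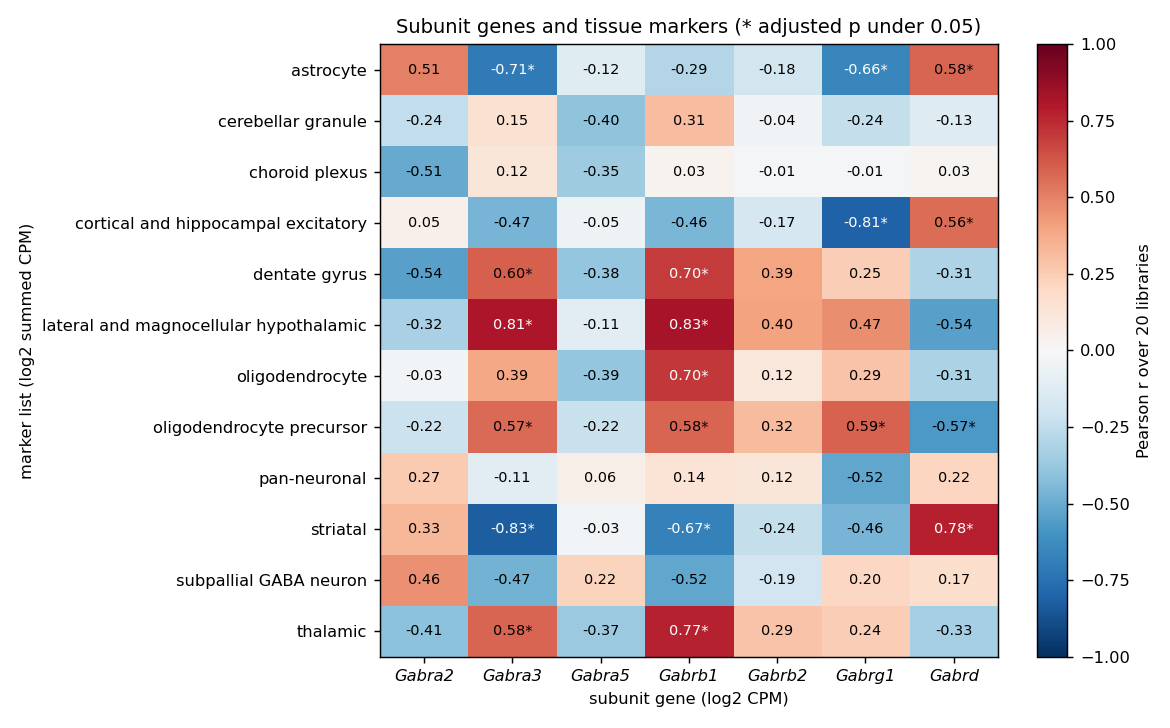
Pearson's r over 20 libraries between the log2 CPM of each of the 7 genes (columns) and the log2 summed CPM of each of 12 marker lists (rows); an asterisk marks an adjusted p under 0.05. Gabra3 and Gabrb1 are red for the hypothalamic and thalamic lists and blue for the striatal list, and Gabrd is red for the striatal list.

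The genes most like each member over the 20 libraries, by r with group means subtracted among 14049 genes, are given as a description. For Gabra3 they were Nap1l2 (0.95), Ate1 (0.93) and Armcx4 (0.93), and for Gabrg1 Ppp1r14c (0.96), Rragb (0.93) and Brca2 (0.92). For Gabrd they were Rasgrp1 (0.92), Dlgap3 (0.91) and Coro2b (0.90), and for Gabrb2 Tcp11l1 (0.94), Palm2 (0.93) and Klhl11 (0.93). Gabra2 was closest to Hnrnph1 (0.91), Zmym1 (0.89) and Psip1 (0.88), and Gabrb1 to Plxdc2 (0.88), Hspa4l (0.88) and Clasp2 (0.87). Gabra5 had the loosest match, with Shq1 (0.73), Zfp65 (0.73) and Nme4 (0.73). Every r comes from the same 20 libraries, whose tissue makeup and depth varied.

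Spread over the 20 libraries also differed between the genes. The coefficient of variation was 30.2% for Gabrd and 24.7% for Gabrb2, beside a median of 13.8% over 14050 genes. Gabrg1 (20.5%), Gabra2 (19.7%) and Gabrb1 (17.3%) were intermediate, and Gabra3 (14.9%) and Gabra5 (13.8%) were near the median.

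Genes that place, supply or modulate the receptor were taken from 4 further lists, and none passed in any of the 6 comparisons by edgeR. The 21 scaffold and trafficking genes had 11 estimates above 0 in females and 13 in males, with medians of 0.01 and 0.02. Iqsec3, a partner of the scaffold protein gephyrin, had the smallest p of them in females (-0.28 ± 0.10, adjusted p = 0.774, edgeR), and Rdx, which anchors alpha5 receptors outside synapses, in males (0.23 ± 0.09, adjusted p = 0.464, edgeR). Between susceptible males and females Iqsec3 was at 0.43 ± 0.10 (adjusted p = 0.313, edgeR), and limma voom (adjusted p = 0.0307) and DESeq2 (adjusted p = 0.0237) called it, in fits that called 0.0739% and 0.101% of genes. EdgeR called it without susceptible female 4 (adjusted p = 0.00913) and without the Pmch libraries (adjusted p = 0.0274), with 0.134% and 0.0861% of genes called. Of 9 genes of GABA synthesis, transport and GABA-B receptors 8 had estimates above 0 in males, with a median of 0.04. Slc6a13, a GABA transporter of the meninges and vessels, was the 1 below, at -0.72 ± 0.28 (adjusted p = 0.454, edgeR). Limma voom called it (-0.98, adjusted p = 0.0467), in a fit that called 4.63% of genes. Gad1, a GABA-making enzyme, and Slc6a13 had the smallest p of this list in females (0.27 ± 0.14 and -0.45 ± 0.27, both adjusted p = 0.774, edgeR), and Slc6a11, an astrocyte GABA transporter, was second in males (0.47 ± 0.32, adjusted p = 0.664, edgeR).

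In controls, males against females, Gad2, the other GABA-making enzyme, was at 0.50 ± 0.17 and Gad1 at 0.32 ± 0.14 (adjusted p = 0.150 and 0.230, edgeR). Rdx (-0.31 ± 0.09) and Plcl1 (-0.43 ± 0.16), which binds receptors and their trafficking partners, had adjusted p-values of 0.123 and 0.169 there by edgeR. Limma voom, which called 22.3% of genes there, called Gad2 (adjusted p = 0.00929), Gad1 (0.0202), Rdx (0.00702) and Plcl1 (0.00466), and edgeR called Rdx without female control 5 (adjusted p = 0.0339, with 3.06% of genes called). Without the Pmch libraries the estimates were 0.14 for Gad2, 0.03 for Gad1, -0.18 for Rdx and -0.11 for Plcl1. Only female controls 4 and 5 stood for that group there. With the region score the estimates were 0.29, 0.08, -0.13 and -0.15. In susceptible mice Gad2 was at 0.32 ± 0.17, and Trak2, a trafficking adaptor, at 0.36 ± 0.14 (adjusted p = 0.796 and 0.774, edgeR). For the difference between the stress effects, Rdx was at -0.38 ± 0.13, Plcl1 at -0.62 ± 0.22, Slc6a11 at -0.84 ± 0.45 and Gabbr2, a GABA-B receptor subunit, at -0.43 ± 0.39 (adjusted p = 0.587, 0.587, 0.587 and 0.689, edgeR). Nsf, which drives receptor insertion, was at -0.18 ± 0.09 in females, and Gabarapl2 at 0.14 ± 0.06 in males (adjusted p = 0.774 and 0.499, edgeR).

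Among 7 tested neurosteroid and endozepine genes, Srd5a1, the enzyme that starts neurosteroid synthesis from progesterone, was at 0.39 ± 0.15 in males (adjusted p = 0.451, edgeR) and -0.26 ± 0.15 in females (adjusted p = 0.774, edgeR), and the difference between the effects was -0.65 ± 0.21 (adjusted p = 0.587, edgeR). In controls Srd5a1 was at -0.54 ± 0.15 in males against females (adjusted p = 0.0949, edgeR). DESeq2 (adjusted p = 0.0295) and limma voom (0.00419) called it, in fits that called 3.06% and 22.3% of genes. EdgeR called it without female control 5 (adjusted p = 0.0328) and without male control 1 (0.042), with 3.06% and 1.29% of genes called. Without the Pmch libraries, with female controls 4 and 5 alone in that group, it was -0.28. With the region score it was -0.36. Akr1c14, which completes allopregnanolone synthesis, was at 0.53 ± 0.32 in females, with a difference between the effects of 0.66 ± 0.46 (adjusted p = 0.774 and 0.627, edgeR). Dbi, the endozepine precursor, was at 0.10 ± 0.15 for stress in males, -0.23 ± 0.15 for sex in controls and -0.15 ± 0.15 for sex in susceptible mice, and Tspo, a mitochondrial protein that binds it, at -0.28 ± 0.29 in the last (smallest adjusted p = 0.402, edgeR). Of the chloride cotransporters, which set the chloride gradient the receptor uses, Slc12a2 was at -0.23 ± 0.15 in females and 0.33 ± 0.15 in males, with a difference of -0.56 ± 0.21 (adjusted p = 0.587, edgeR). For sex in controls it was at -0.40 ± 0.15 (adjusted p = 0.169, edgeR). Limma voom called it there (adjusted p = 0.00688), with 22.3% of genes called. Without the Pmch libraries, again with female controls 4 and 5 alone, it was -0.16, and with the region score -0.15. Slc12a5, which exports chloride in mature neurons, was at -0.09 ± 0.07 in females and -0.01 ± 0.07 in males.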

How the data were processed

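Trizol-extracted RNA was selected for poly(A) and sequenced in paired reads on an Illumina instrument, per the labels' protocols. The authors deposited 1 table of whole-number read counts per gene for each library, without normalization. HISAT2, featureCounts and mm10 are named in the submitters' processing notes. Their versions, the annotation and the strand setting were not given in the sources used here. Gene identifiers were matched to GENCODE M21 (19180 of 19214), and upstream sequences come from RefSeq on GRCm38.p6. Counts were TMM-scaled, filtered with filterByExpr and fitted over all 20 libraries, 1 mean per group, with the robust quasi-likelihood test of edgeR 4.0.16 (R 4.3.3). The Benjamini-Hochberg adjustment ran over 14884 genes, with a threshold of 0.05, and each SE is |log2 fold change| divided by the root of F. Log2 CPM for correlations used a prior count of 2.

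The 7 genes and all lists were chosen with earlier results of these data known. Named were the subunits, both chloride cotransporters, in each further list the 2 genes with the smallest p in a comparison (not given for the mean effect), and the 3 genes most like each member; some genes that this rule names are not reported here. Alternatives were DESeq2 1.42.0 and its size factors, limma 3.58.1 voom with quality weights, other filters, a replicate block, 1 surrogate variable (sva 3.50.0), a GC and length trend (mgcv 1.9.3), fits of just the groups compared and of all libraries but one; those on Ttr, Pmch and the region score were added after seeing the data. The code was tested on simulated data.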

Additional observations from a re-analysis of the deposited data

Results flagged for a closer look

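In each group of 5 libraries, the highest and the lowest value of 12 tested subunit genes were checked for a gap to the nearest other library that is wide beside the whole range (Dixon's 95% criterion). Of 48 groups checked 6 values stood apart, and chance alone flags about 1 group in 20.

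Gabrb2 in susceptible male 2, at 107.02 CPM, lay far below the other susceptible males (176 to 198 CPM). It is the only one of the 6 in the 7 genes described above.

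Among the other subunits, Gabrr2 stood at 6.4847 CPM in male control 5 and at 0.721 CPM in susceptible female 5. Gabrq stood apart in 3 libraries. It lay above the rest of the group at 51.687 CPM in male control 1 and at 92.412 CPM in susceptible female 4. In susceptible male 5, at 42.152 CPM, it lay slightly below a group of narrow range. Susceptible female 4 and susceptible male 5 are among the 5 libraries over 1 CPM of Pmch. Susceptible male 2, where Gabrb2 was flagged, susceptible male 5 and male control 5 are among the 7 over 100 CPM of Ttr. Male control 1 and susceptible female 5 are in neither set. In male control 1, however, the hypothalamic list summed to 184 CPM, against 0.574 to 4.03 CPM in the other male controls. The part of those markers was not tested.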

How the results depend on the processing

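Of the 42 estimates for the 7 genes (6 comparisons), 29 kept their sign in up to 33 settings and 13 did not. Alternatives with a call among the 7 were limma voom in males (1, Gabrg1) and, for sex in controls, limma voom (1, Gabrb1), limma voom with the GC and length trend removed (1, Gabrb1) and leaving out single libraries (0 to 1, Gabrb1 without male control replicate 1); all others called none. Without the libraries over 1 CPM of Pmch 1 pair of genes passed in place of 4, and 3 marker relations in place of 19; without those over 100 CPM of Ttr 6 pairs and 26 relations passed. Leaving out single control libraries gave 6 (without female control 3) to 458 calls (without female control 5) over all genes for sex in controls. Levels by longest transcript were 17.2 (Gabra2), 35.3 (Gabrb2) and 18.2 CPM per kb (Gabrg1). Deviations of same-numbered libraries from their group means had r over 0.1 in at most 3 of 5 pairs between any 2 groups. Between male controls and susceptible males r was 0.0187 to 0.251, and 3 of 5 libraries matched their own number best. Between female controls and susceptible females r was -0.436 to 0.642, with 2 of 5. The fewest was 0, between female controls and susceptible males. Whether the numbers pair the samples cannot be told from 5 pairs. With the replicate number as a block, 0 of the 7 genes were called in each comparison. Calls over all genes then went from 76 to 110 for sex in controls and from 7 to 4 for sex in susceptible mice. Voom and DESeq2 called 3324 and 455 genes for sex in controls, and 689 and 24 for stress in males. With 5 libraries a group, the 95% interval of a stress effect was as narrow as that of Gabra5 in males (-0.05 to 0.43). It was as wide as that of Gabrd there (-0.86 to 0.31). Both intervals hold 0, so neither effect could be told from 0. The cause of the changes was not tested.

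With 1 surrogate variable, reversed estimates were Gabra2 -0.00990 for stress in females, Gabrb2 0.00384 for the mean stress effect, Gabbr2 0.11 for the difference of the effects, Gabra3 0.014, Gabrg1 0.051, Dbi 0.00165 for sex in controls. With the region score, reversed estimates were Gabra2 -0.019 for stress in females, Gabra3 0.017, Gabrb2 0.033, Gabrd -0.00253 for the mean stress effect, Gabbr2 0.13 for the difference of the effects, Gabra3 0.015, Gabrg1 0.011 for sex in controls. Without the libraries over 100 CPM of Ttr, reversed estimates were Gabra5 -0.11, Gabrg1 -0.16 for stress in females, Dbi -0.040 for stress in males, Gabra3 0.00504, Gabrb2 0.14, Gabrd -0.037 for the mean stress effect, Slc12a5 0.011 for the difference of the effects, Gabra5 -0.17 for sex in controls, Gabrb1 -0.016 for sex in susceptible mice. Without the libraries over 1 CPM of Pmch, reversed estimates were Gabra5 -0.011, Gabrg1 -0.11, Srd5a1 0.014 for stress in females, Slc12a5 0.037 for stress in males, Gabrb2 0.045 for the mean stress effect, Gabbr2 0.35 for the difference of the effects. With limma voom, reversed estimates were Gabrg1 -0.024 for stress in females, Gabrb2 0.00664, Gabrd -0.037 for the mean stress effect, Gabrb2 -0.037 for sex in controls, Gabra2 0.043 for sex in susceptible mice. With the GC and length trend removed in edgeR, reversed estimates were Gabrg1 -0.022 for stress in females, Slc12a5 0.11 for stress in males, Gabrb1 -0.034 for sex in susceptible mice. With that trend removed in limma voom, reversed estimates were Gabrg1 -0.095 for stress in females, Slc12a5 0.098 for stress in males, Gabrb2 -0.011 for sex in controls, Gabra2 0.00260, Gabrb1 -0.063 for sex in susceptible mice. Leaving out single libraries, sign changes occurred in these ranges: Gabra5 -0.033 to 0.14, Gabrg1 -0.092 to 0.15 for stress in females, Slc12a5 -0.051 to 0.025 for stress in males, Gabra3 -0.11 to 0.011, Gabrb2 -0.068 to 0.066, Gabrd -0.027 to 0.16 for the mean stress effect, Gabra2 -0.27 to 0.013 for the difference of the effects, Gabra5 -0.00709 to 0.17, Gabrb2 -0.044 to 0.098 for sex in controls, Gabra2 -0.14 to 0.029, Gabrb1 -0.020 to 0.12, Dbi -0.24 to 0.016 for sex in susceptible mice.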
